A study of Homo sapiens with 12 samples.

Results

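The 10 mRNA stability regulators described here are ZC3H12A (ENSG00000163874), RC3H1 (ENSG00000135870), RC3H2 (ENSG00000056586), ZFP36 (ENSG00000128016), ZFP36L1 (ENSG00000185650), ZFP36L2 (ENSG00000152518), KHSRP (ENSG00000088247), HNRNPD (ENSG00000138668), ELAVL1 (ENSG00000066044) and UPF1 (ENSG00000005007). They were chosen by name, through these Ensembl gene identifiers, and not by any measured value, although earlier results of these data were known. They are 10 of the 60708 features in the deposited tables. All 10 passed the filter on low counts. The 12 libraries hold RNA recovered by immunoprecipitation from HK2 cells, an established epithelial line from human kidney. Every culture, controls included, had been transfected with 10 µg of plasmid for human Arid5a carrying a FLAG tag, so no group lacks the plasmid. The groups were FLAG precipitates of cells given IL-17, FLAG precipitates of cells in medium, mouse IgG1 precipitates of cells given IL-17, and mouse IgG1 precipitates of cells in medium, with 3 libraries each. IL-17, an inflammatory cytokine, was used at 200 ng/mL for 3 h, and the medium controls ran for the same 3 h. Whether the replicates of a group are separate cultures is not said in the labels, and p-values then reflect only how far these libraries scatter, which may be technical.

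An mRNA's level depends on how fast it is made and how fast it is destroyed, and inflammatory mRNAs carry stem-loops and AU-rich elements through which RNA-binding proteins speed up or slow down decay. Regnase-1 (ZC3H12A) cuts such stem-loops, the Roquins (RC3H1 and RC3H2) and the TTP family (ZFP36, ZFP36L1 and ZFP36L2) recruit deadenylases, and HuR (ELAVL1) protects its targets. Arid5a, the tagged protein, is itself known to stabilise inflammatory mRNAs such as IL6 and to oppose Regnase-1, and IL-17 signalling is known to act in part through mRNA stability. The values below concern the mRNAs of these regulators and not their proteins. In RNA from whole precipitates, more molecules of one mRNA in a cell and more cells holding it cannot be told apart, and without an input library among those analysed, a treatment difference can lie in the cells or in what the precipitate carried over.

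The genes lie on 6 chromosomes in the RefSeq annotation of GRCh38.p14, with ZC3H12A at chr1:37474580-37484377 and HNRNPD at chr4:82352498-82373991. RefSeq promoter windows were found for 8 of the 10 genes, with no entry for ELAVL1 and ZFP36L2. The 250 bases upstream of the annotated start are printed for ZC3H12A and HNRNPD, whose IL-17 differences, averaged over both antibodies, were the highest and the lowest of the 10, and for RC3H2, the 1 gene of the 8 whose window held the NF-kappaB-type motif. They run 5′ to 3′ on the gene's strand, and capitals mark matches on either strand to TATAAA, to GGGA followed by any 2 bases and TTCC (an NF-kappaB-type motif), to TTGCNNAA (a C/EBP-type motif) or to CACGTG (an E-box).
ZC3H12A (chr1:37474330-37474579, plus strand): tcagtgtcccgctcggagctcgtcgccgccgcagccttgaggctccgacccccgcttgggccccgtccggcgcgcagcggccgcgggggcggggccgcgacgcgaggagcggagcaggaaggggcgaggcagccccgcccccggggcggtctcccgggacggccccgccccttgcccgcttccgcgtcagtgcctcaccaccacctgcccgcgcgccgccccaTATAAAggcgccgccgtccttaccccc
HNRNPD (chr4:82373992-82374241, minus strand): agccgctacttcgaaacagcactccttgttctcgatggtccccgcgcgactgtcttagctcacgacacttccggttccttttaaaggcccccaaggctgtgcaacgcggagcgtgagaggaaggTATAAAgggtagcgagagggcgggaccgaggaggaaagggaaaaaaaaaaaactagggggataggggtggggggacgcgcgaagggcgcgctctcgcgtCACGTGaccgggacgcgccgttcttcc
RC3H2 (chr9:122905360-122905609, minus strand): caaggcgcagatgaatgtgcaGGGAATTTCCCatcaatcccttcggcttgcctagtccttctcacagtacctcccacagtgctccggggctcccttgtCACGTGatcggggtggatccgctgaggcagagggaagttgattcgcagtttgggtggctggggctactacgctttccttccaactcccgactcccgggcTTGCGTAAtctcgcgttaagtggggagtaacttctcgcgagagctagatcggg
The ZC3H12A window held TATAAA starting 27 bases before the annotated start, and was 78.8% G or C, against a median of 58.0% over all 35116 promoters in the table. The HNRNPD window held TATAAA starting 126 bases and CACGTG starting 27 bases before the start. The RC3H2 window held the NF-kappaB-type motif as 2 overlapping matches on opposite strands, with TTGCNNAA and CACGTG as well. Over all promoters in the table, 10.7% held TATAAA, 1.4% the NF-kappaB-type motif, 9.05% TTGCNNAA and 6.34% CACGTG. A match is a stretch of letters and not a measured binding site, and a window with no match says only that these letters are not in it.

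Depth was uneven between treatments. Total estimated counts per library were 17723136, 13653406 and 17651848 in FLAG with IL-17, against 2402395, 7563477 and 6315719 in FLAG medium. They were 5365495, 10336247 and 15837845 in IgG with IL-17, against 746911, 6118339 and 3803261 in IgG medium. Taking 3 counts as the limit for a gene with none, which allows for counting error alone, the bound on an undetected gene was 0.169 CPM in the deepest library and 4.02 CPM in the shallowest. The 10 most abundant features took 32.6% to 59.7% of TPM. Earlier examination of these data had set 4 libraries apart for their depth or content, namely IgG medium replicates 1 and 2, FLAG medium replicate 1 and IgG IL-17 replicate 1, and results that change without them are given both ways. The cell line's own markers were not checked, because the files pair no identifiers with gene names.

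On the length-normalised scale of TPM, in which every library has the same total, ZFP36L1, HNRNPD and KHSRP had the 3 highest means in each group. KHSRP encodes a KH-domain protein that promotes decay at AU-rich elements. These 3 mRNAs together held 78.7% to 90.6% of the summed TPM of the 10 genes in every library. In FLAG with IL-17 the mean TPM was 27.0 ± 16 for ZFP36L1, 24.7 ± 13.8 for HNRNPD and 13.4 ± 7.81 for KHSRP (SD, n = 3 each). In FLAG medium HNRNPD came first at 102 ± 66.7 TPM, ahead of ZFP36L1 at 63.7 ± 22.1 and KHSRP at 25.8 ± 16.8 (SD, n = 3 each). Across libraries the ranges of HNRNPD and ZFP36L1 overlapped in all 4 groups. Within a library, ZFP36L1 exceeded HNRNPD in every IL-17 library, narrowly in FLAG IL-17 replicate 3, at 13.7 against 13.0 TPM. HNRNPD exceeded ZFP36L1 in every IgG medium library. FLAG medium was mixed, with ZFP36L1 ahead in replicate 1 alone, at 55.8 against 49.3 TPM. IgG libraries had the same leading genes, with ZFP36L1 at 23.9 ± 8.0 and HNRNPD at 19.3 ± 4.98 TPM with IL-17, and HNRNPD at 129 ± 86.1 and ZFP36L1 at 56.4 ± 26.4 TPM in medium (SD, n = 3 each).

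**Figure D1:**
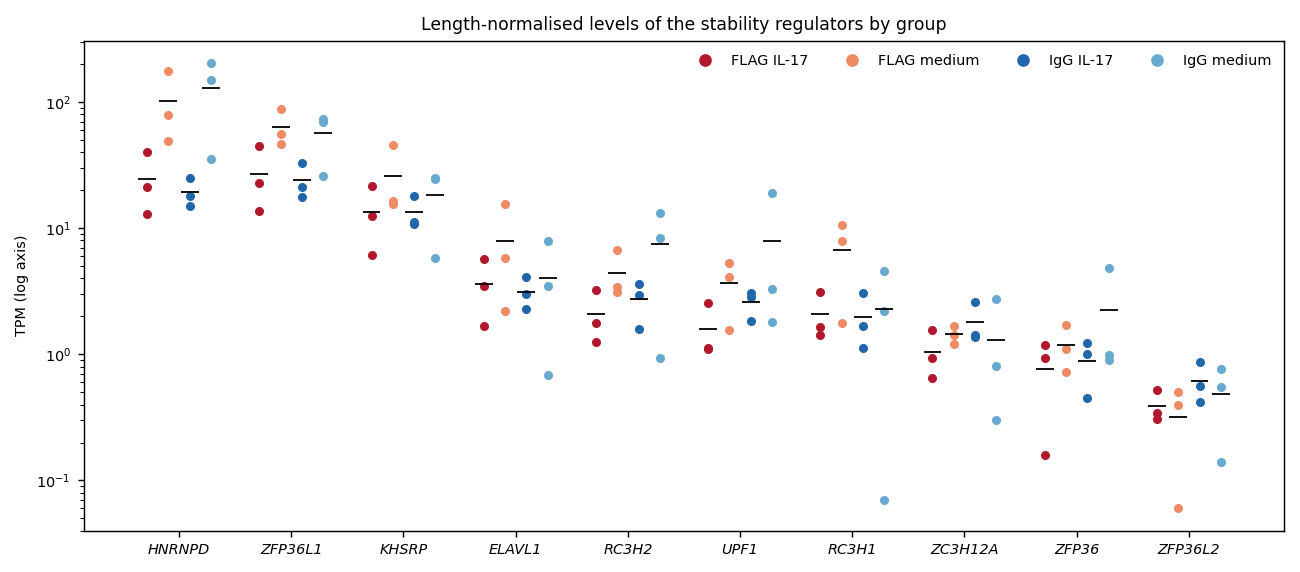
TPM of each regulator in each library (log axis), genes ordered by mean TPM, with points for the 3 libraries of a group and a bar at the group mean. HNRNPD, ZFP36L1 and KHSRP stand highest, and HNRNPD reached 204 TPM in IgG medium.

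The other 7 genes stood lower. Their group means ran between 0.32 TPM, for ZFP36L2 in FLAG medium, and 7.98 TPM, for UPF1 in IgG medium. Most neighbours in this order overlapped between libraries, and in IgG medium KHSRP, at 5.77 to 25.1 TPM, also overlapped UPF1, at 1.81 to 18.8 TPM. ZFP36L2 came last in all 4 groups, with means of 0.39 ± 0.114 TPM in FLAG with IL-17 and 0.617 ± 0.23 TPM in IgG with IL-17 (SD, n = 3 each). ZFP36L1 therefore held almost all of its family's signal, at 93.0% to 98.6% of the summed TPM of ZFP36, ZFP36L1 and ZFP36L2 in every library. ZFP36, which encodes TTP, held 0.813% to 6.07% of that sum.

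The first question was whether Arid5a precipitates held more of these mRNAs than control precipitates. No difference between FLAG and IgG was found for any of the 10. In medium, edgeR's quasi-likelihood test called 0 of the 10 at an adjusted p under 0.05, beside 0% of all 24040 features tested in either direction. With IL-17 it again called 0 of the 10, beside 0% of all features, and averaged over both treatments 0 of the 10, beside 0%. At an unadjusted p under 0.05 it placed 0 of the 10 in medium, beside 4.17% of all features higher and 2.4% lower. The same threshold gave 0 with IL-17, beside 0.566% and 2.25%, and 0 for the average, beside 1.78% and 2.36%. DESeq2 called 0 of the 10 in medium, beside 0.387% of all features higher and 0.187% lower, 0 with IL-17, beside 0.00416% and 0.0333%, and 0 for the average, beside 0.0541% and 0.0832%. On log2(TPM + 1), limma called 0 of the 10 in each of these, beside 0% of all features. In none of these comparisons did the TMM-scaled CPM of any of the 10 separate the FLAG from the IgG libraries. CPM is the count relative to the library's total, here after trimmed-mean (TMM) scaling. All features separated in 5.07% of cases higher in FLAG and 1.11% lower in medium, in 14.6% higher and 12.3% lower with IL-17, and in 0.175% higher and 0.0333% lower over all libraries.

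The log2 fold changes of FLAG over IgG in medium ran from -0.66 for ZFP36L2 to 0.68 for ZC3H12A, and their standard errors from 0.508 to 1.07. For ZC3H12A in medium the 95% interval of the log2 fold change was -0.61 to 1.98, which spans both a lower level and a fold change of 3.93. With IL-17 the values ran from -0.55 for ZFP36 to 0.46 for HNRNPD. The members' median log2 fold change was -0.12 in medium, against 0.20 over all features tested, and 0.21 with IL-17, against -0.33 over all. Averaged over both treatments, ELAVL1, the HuR mRNA, had the highest value at 0.47 (SE 0.397, 95% interval -0.35 to 1.29), and ZFP36 the lowest at -0.58 (SE 0.736, 95% interval -2.09 to 0.93). The ELAVL1 interval reaches a 2.44-fold enrichment, and the ZFP36 interval spans folds of 0.235 to 1.91. Similar recovery by both antibodies was therefore not shown.

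The design also allows a test of whether IL-17 changed the enrichment. For this change edgeR called 0 of the 10, beside 0% of all features, with 0 at an unadjusted p under 0.05, beside 1.07% higher and 6.28% lower. DESeq2 called 0, beside 0.0499% and 0.399%, and limma on log2(TPM + 1) called 0, beside 0%. ZC3H12A had the lowest log2 value, -1.08 (SE 0.852, edgeR adjusted p = 0.784), and HNRNPD the highest, 0.76 (SE 0.837, edgeR adjusted p = 0.836). Leaving out the 4 libraries set apart leaves 1 IgG medium library, replicate 3, which held 16 ZC3H12A counts and is assumed to vary like the others. It also moved the median log2 value of all features to 1.601 for FLAG over IgG in medium and to -2.17 for the change with IL-17. ZC3H12A was then called in both, at 1.97 (edgeR adjusted p = 0.0285) and -2.62 (edgeR adjusted p = 0.0221), which is 0.36 above and 0.45 below those medians. In medium 3.4% of all features were called higher and 0.887% lower under this setting, and for the change 0.384% and 1.93%.

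**Figure D2:**
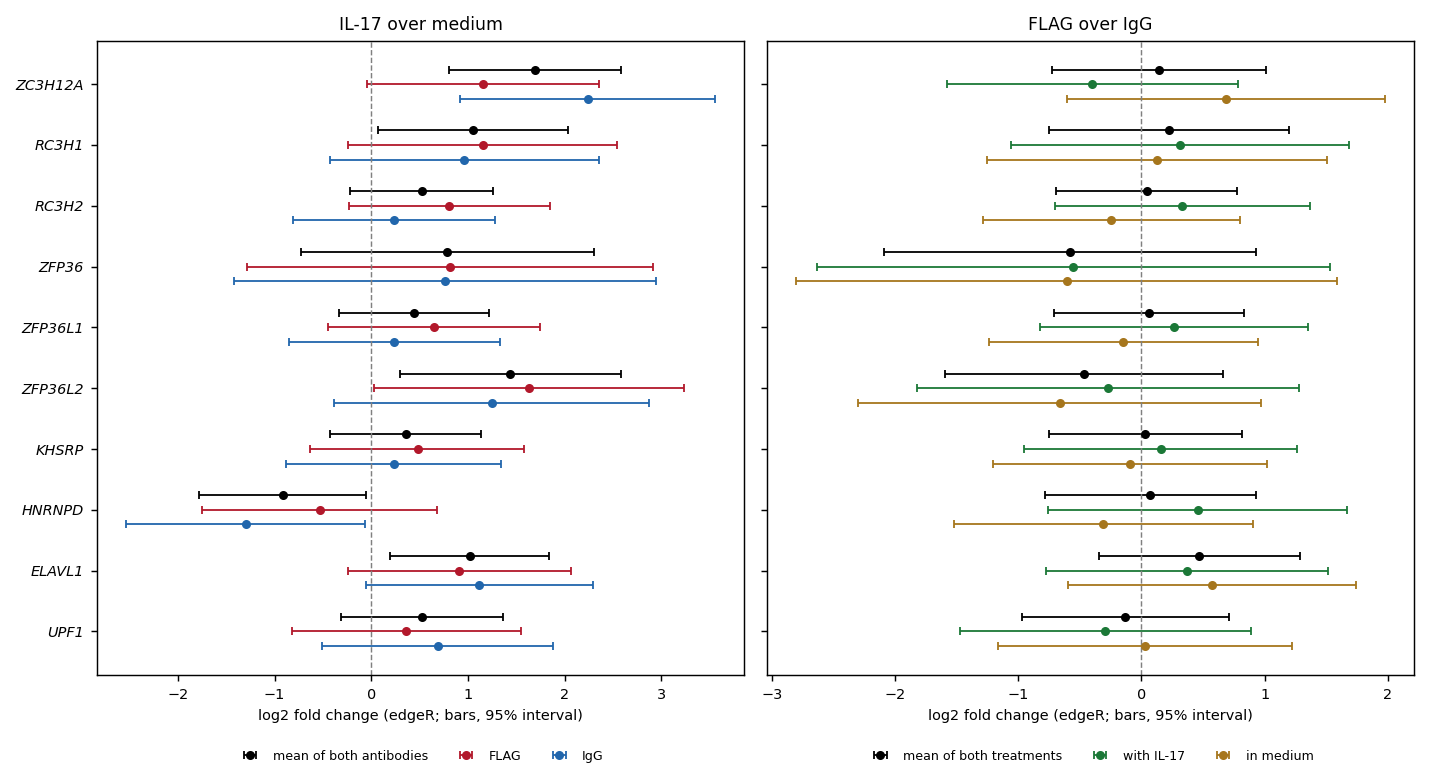
log2 fold changes of the 10 regulators from edgeR, with 95% intervals, for IL-17 over medium (left) and FLAG over IgG (right); black is the mean over the other factor and colours are the separate comparisons. On the right every interval crosses 0, and on the left the intervals of the mean lie off 0 for ZC3H12A, RC3H1, ZFP36L2, ELAVL1 and HNRNPD.

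The clearer contrast was between treatments. Averaged over both antibodies, 9 of the 10 had log2 fold changes above 0 with IL-17 and HNRNPD alone lay below 0, with a median of 0.66 for the 10 genes, against -0.07 over all features tested. This direction depended on the scale: on log2(TPM + 1), where all features had a median of -0.34, 7 of those 9 lay below 0, and ZC3H12A and ZFP36L2 stayed above it. After adjustment over all features edgeR called 0 of the 10, beside 0.329% of all features higher and 0.0666% lower. With the p unadjusted, 4 were higher below 0.05 (ZC3H12A, RC3H1, ZFP36L2 and ELAVL1), beside 5.5% of all features, and HNRNPD was the 1 lower, beside 4.99%. DESeq2 called ZC3H12A higher and HNRNPD lower, beside 1.01% and 1.97% of all features, and limma on log2(TPM + 1) called 0, beside 0.0333% and 0.466%. The IL-17 libraries were also deeper on average. With every library thinned to 740000 counts, the log2 fold change of the mean was 1.22 for ZC3H12A (edgeR adjusted p = 0.282) and -1.03 for HNRNPD (edgeR adjusted p = 0.0694).

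ZC3H12A encodes Regnase-1, the endoribonuclease that Arid5a is known to oppose. Its TMM-scaled CPM was 30.7, 29.0 and 32.5 in FLAG with IL-17, against 12.2, 10.8 and 18.4 in FLAG medium. The IgG precipitates had 23.7, 42.3 and 55.5 with IL-17, against 16.96, 8.15 and 4.10 in medium. All 6 IL-17 libraries stood above all 6 medium libraries, and ZC3H12A was the 1 gene of the 10 for which this held, beside 1.1% of all features higher and 0.108% lower in this way. The log2 fold change averaged over antibodies was 1.70 (SE 0.434, edgeR unadjusted p = 0.000588, adjusted p = 0.110), a 3.24-fold difference with a 95% interval of 1.75 to 6.01. It was 2.24 in IgG (SE 0.642, edgeR adjusted p = 0.464) and 1.15 in FLAG (SE 0.586, edgeR adjusted p = 0.460).

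The ZC3H12A difference was sensitive to single libraries and to the scale. Leaving out each library in turn gave log2 fold changes of the mean from 1.28 to 1.97, with edgeR adjusted p from 0.00771 to 0.622. The 1 omission that gave a call was IgG medium replicate 1, the shallowest library, with 8 ZC3H12A counts. The share of all features called under that omission is not given here, so this call has no background to be set against. Without the 4 libraries set apart the mean was 2.39 (edgeR adjusted p = 4.44e-05), against a median of 0.80 over all features, with 5.99% of all features called higher and 1.87% lower. That fit rests on 1 IgG medium library, which had the lowest ZC3H12A level of the 12. By DESeq2 it was 1.302 (adjusted p = 0.0349) for the mean and 2.01 (adjusted p = 0.0333) in IgG. On CPM without TMM scaling the 6 IL-17 libraries also stood above the 6 medium libraries, at 19.9 to 38.8 with IL-17, against 4.21 to 18.3 in medium. On the deposited TPM the treatments overlapped, at 0.65 to 2.60 with IL-17, against 0.30 to 2.76 in medium, and the mean difference on log2(TPM + 1) was 0.07 (limma adjusted p = 0.866).

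**Figure D3:**
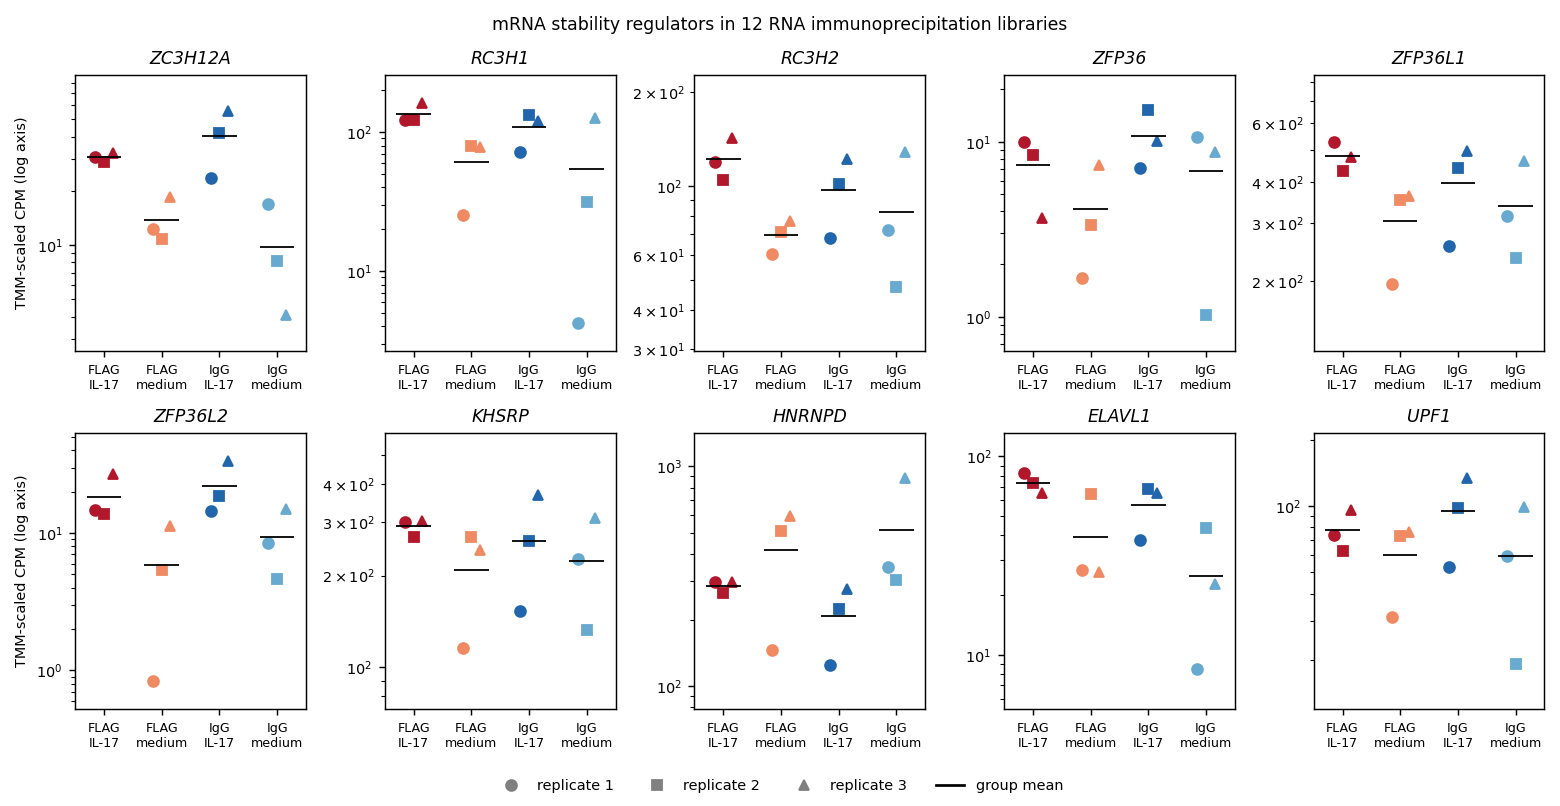
TMM-scaled CPM of each regulator in the 12 libraries (log axis, scaled separately for each gene), with replicate numbers by symbol and a bar at the group mean. ZC3H12A stands higher in the 6 IL-17 libraries than in the 6 medium libraries, and HNRNPD is lower with IL-17 in IgG.

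The Roquins are stem-loop binding proteins that recruit the CCR4-NOT deadenylase. RC3H1 had 123, 121 and 162 TMM-scaled CPM in FLAG with IL-17, against 25.2, 79.3 and 78.2 in FLAG medium. In IgG it had 72.5, 133 and 121 with IL-17, against 4.24, 31.3 and 126 in medium. The FLAG libraries separated by treatment and the IgG libraries did not, because IgG medium replicate 3 was as high as the IL-17 libraries. The mean log2 fold change was 1.06 (SE 0.478, edgeR unadjusted p = 0.0362, adjusted p = 0.455). Its relative RC3H2, at 47.3 to 142 TMM-scaled CPM over all libraries, had a mean log2 fold change of 0.52 (SE 0.358, edgeR adjusted p = 0.571).

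RC3H1 was also the gene whose counts and TPM parted most. The estimated count divided by TPM, scaled to the library's median, gives the length over which the authors' quantification spread a gene's reads, relative to other genes. For RC3H1 it was 0.391 in FLAG medium replicate 1 and 1.38 in FLAG medium replicate 2, against 2.53 to 3.91 in the other 9 libraries with at least 20 counts. This 10.0-fold range exceeded that of 98.0% of 10389 features, whose median range was 2.59-fold. In those 2 FLAG medium libraries RC3H1 had 7.98 and 10.5 TPM, although its TMM-scaled CPM there was below every FLAG IL-17 library. On log2(TPM + 1) the RC3H1 difference in FLAG was -1.14, against 1.15 from counts.

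The TTP family binds AU-rich elements through paired zinc fingers. ZFP36L2 had 14.7, 13.7 and 26.8 TMM-scaled CPM in FLAG with IL-17, against 0.832, 5.35 and 11.3 in FLAG medium. In IgG it had 14.4, 18.5 and 33.7 with IL-17, against 8.48, 4.64 and 14.9 in medium. Only IgG medium replicate 3 reached the range of the IL-17 libraries. The mean log2 fold change was 1.44 (SE 0.557, edgeR unadjusted p = 0.0156, adjusted p = 0.399), with 1.63 in FLAG and 1.24 in IgG. On log2(TPM + 1) the mean ZFP36L2 difference was 0.11 (limma adjusted p = 0.667). FLAG medium replicate 1 and IgG medium replicate 1 rest on 3 and 4 ZFP36L2 counts, and its estimated counts were not whole in 8 libraries, as happens where quantification divides reads between features.

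ZFP36, the TTP gene itself, had 3.69 to 15.1 TMM-scaled CPM with IL-17, against 1.02 to 10.6 in medium, and a mean log2 fold change of 0.79 (SE 0.737, edgeR adjusted p = 0.665). ZFP36L1 had 256 to 527 with IL-17, against 197 to 461 in medium, and 0.44 (SE 0.376, edgeR adjusted p = 0.636). For both genes the 6 libraries of one treatment overlapped those of the other.

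KHSRP and HNRNPD encode proteins that bind AU-rich elements, and HNRNPD, also called AUF1, is known to promote decay or stability depending on its isoforms. HNRNPD had 297, 265 and 299 TMM-scaled CPM in FLAG with IL-17, against 146, 508 and 594 in FLAG medium. In IgG it had 125, 225 and 278 with IL-17, against 350, 306 and 890 in medium. The IgG libraries separated by treatment, and FLAG medium replicate 1 alone kept the FLAG libraries from doing so. The mean log2 fold change was -0.92 (SE 0.421, edgeR unadjusted p = 0.0384, adjusted p = 0.460), with -1.30 in IgG (SE 0.601, edgeR adjusted p = 0.889) and -0.54 in FLAG (SE 0.592, edgeR adjusted p = 0.661).

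DESeq2 called HNRNPD lower with IL-17 for the mean (-1.16 on the log2 scale, DESeq2 adjusted p = 0.000552) and in IgG (-1.38, DESeq2 adjusted p = 0.011). Without the 4 libraries set apart edgeR called it for the mean (-1.32, adjusted p = 0.000321) and in IgG (-1.70, adjusted p = 0.00321). Both use 1 IgG medium library, which had the highest HNRNPD level of the 12, and in IgG 4.13% of all features were called higher and 1.52% lower. In FLAG, with 2 medium libraries left, the value was -0.94 (edgeR adjusted p = 0.0429), beside 1.61% of all features higher and 0.651% lower. The deposited TPM gave 13.0 to 39.9 with IL-17, against 35.1 to 204 in medium, where only IgG medium replicate 1 fell inside the IL-17 range. On log2(TPM + 1) limma gave -2.16 (adjusted p = 0.0978). KHSRP had 152 to 370 TMM-scaled CPM with IL-17, against 116 to 309 in medium, with a mean log2 fold change of 0.35 (SE 0.381, edgeR adjusted p = 0.707).

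ELAVL1 encodes HuR, which stabilises mRNAs with AU-rich elements. It had 82.4, 73.5 and 65.1 TMM-scaled CPM in FLAG with IL-17, against 26.6, 64.4 and 26.1 in FLAG medium. In IgG it had 38.0, 68.2 and 65.2 with IL-17, against 8.48, 43.3 and 22.8 in medium. The FLAG libraries separated by treatment by a narrow margin, and in IgG only medium replicate 2 reached the IL-17 range. The mean log2 fold change was 1.02 (SE 0.400, edgeR unadjusted p = 0.0175, adjusted p = 0.405), with 1.12 in IgG and 0.91 in FLAG. Without the 4 libraries set apart edgeR called the mean (1.18, adjusted p = 0.0106) and the IgG difference (1.67, adjusted p = 0.0349), but with 1 IgG medium library, after leaving out the one that reached the IL-17 range. The medians of all features were then 0.80 for the mean and 2.17 in IgG, so the IgG value of ELAVL1 lay below the median. On log2(TPM + 1) the mean had the opposite sign, at -0.36, where all features had a median of -0.34.

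UPF1, the helicase of nonsense-mediated decay that Regnase-1 is known to need, had 52.7 to 135 TMM-scaled CPM with IL-17, against 19.1 to 99.4 in medium. Its log2 fold change averaged over antibodies came to 0.52, with SE 0.409 and an edgeR adjusted p of 0.606.

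Within each antibody, edgeR called 0 of the 10 for IL-17 in FLAG, beside 0.22% of all features higher and 0.00416% lower, with ZFP36L2 as the 1 at an unadjusted p under 0.05, beside 3.05% higher and 7.86% lower. DESeq2 called 0 in FLAG, beside 0.645% and 3.3%, and limma on log2(TPM + 1) called 0, beside 0.0166% in each direction. In FLAG, 7 of the 10 stood higher in every IL-17 library than in every medium library, but so did 17.3% of all features, and 11% stood lower. In IgG edgeR called 0 of the 10, beside 0.0125% higher and 0% lower, with ZC3H12A as the 1 higher and HNRNPD as the 1 lower below an unadjusted 0.05, beside 3.79% and 1.78%. DESeq2 called 2 in IgG, ZC3H12A higher and HNRNPD lower, beside 0.503% and 0.844% of all features, and limma on log2(TPM + 1) called 0, beside 0.00832% and 0.0499%. In IgG 1 stood higher in every IL-17 library (ZC3H12A), beside 9.69% of all features, and 1 lower (HNRNPD), beside 1.93%. The comparisons of IL-17 in FLAG and in IgG share no library, but they share 1 model. Whether they also share cultures is not said in the labels. In each comparison 9 of the 10 lay above 0 and HNRNPD below it. The median of all features was itself -0.29 in FLAG, where HNRNPD stood at -0.54 and 45.8% of features had a lower value. In IgG that median was 0.18, with HNRNPD at -1.30 and 9.5% of features lower. On log2(TPM + 1) and log2(TPM + 0.1), 8 of the 10 had the opposite sign in FLAG, ZC3H12A among them, and 5 in IgG. These signs are against 0. Relative to the median of all features, ZC3H12A in FLAG stayed above in all 26 settings other than the main one. RC3H1, ZFP36L1 and KHSRP did so in 24 of them.

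Ratios between 2 genes counted in the same library do not depend on that library's scaling, so they were compared across treatments. Their counting error does depend on depth. IgG medium replicate 1 held 2 RC3H1 and 8 ZC3H12A counts, for example. Of the 45 pairs among the 10 genes, 8 had count ratios that did not overlap between the 6 IL-17 and the 6 medium libraries, beside 1.05% of all pairs of tested features. HNRNPD was in 7 of those 8, and the other was ZFP36L2 with KHSRP. For FLAG against IgG, 0 of the 45 pairs separated, beside 0.266% of all pairs. A ratio shows that 2 genes differed unequally and not which of them changed.

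KHSRP counts per HNRNPD count were 1.01, 1.01 and 1.01 in FLAG with IL-17, against 0.792, 0.527 and 0.408 in FLAG medium. In IgG they were 1.22, 1.16 and 1.33 with IL-17, against 0.650, 0.435 and 0.347 in medium. Every IL-17 library held more KHSRP than HNRNPD counts, and every medium library held fewer. Counts are not length-normalised, so they do not rank the levels of these genes. In TPM the HNRNPD mean exceeded the KHSRP mean with IL-17, at 24.7 against 13.4 in FLAG and 19.3 against 13.4 in IgG. The ranges overlapped between libraries, but within every IL-17 library HNRNPD had the higher TPM. ZFP36L1 per HNRNPD ran from 1.58 to 2.04 with IL-17, against 0.518 to 1.35 in medium. ZC3H12A per HNRNPD ran from 0.103 to 0.2 with IL-17, against 0.00475 to 0.0842 in medium. RC3H2 and ZFP36 were the 2 genes whose ratio to HNRNPD overlapped between treatments.

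**Figure D4:**
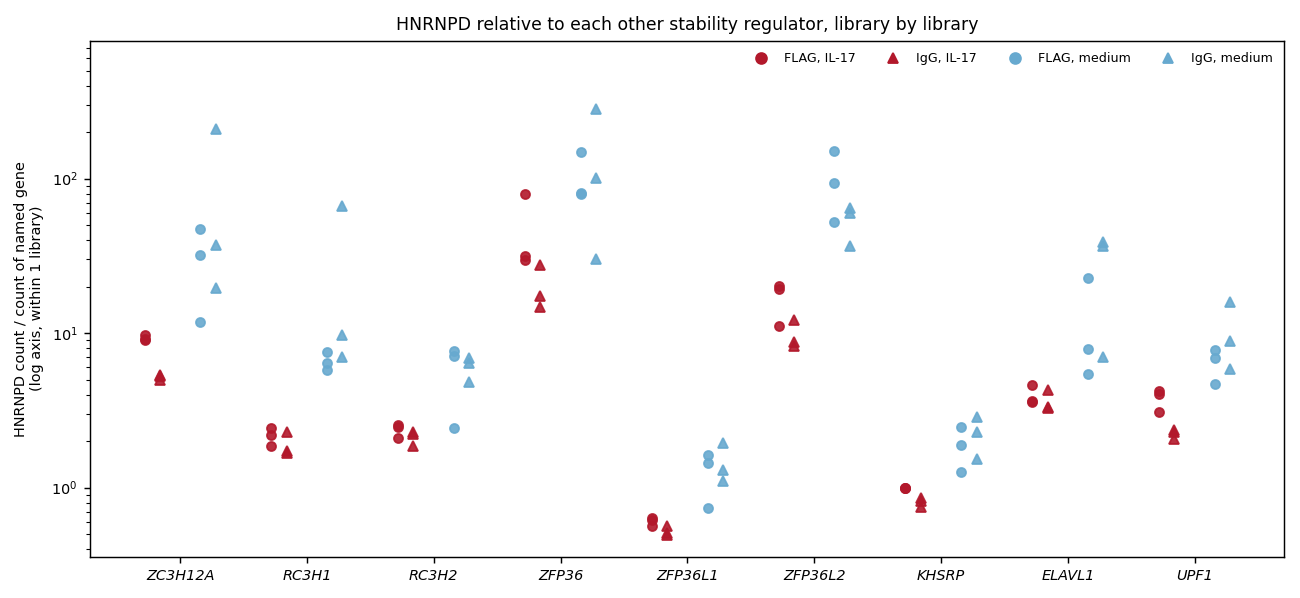
HNRNPD count divided by the count of each other regulator within a library (log axis), with red for IL-17 and blue for medium, circles for FLAG and triangles for IgG. All red points lie below all blue points for 7 of the 9 genes, the exceptions being RC3H2 and ZFP36.

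Set against all 24039 other tested features, the HNRNPD ratio was lower in every IL-17 library than in every medium library for 3143 and higher for 2, which is 13.1% of them. That share was larger than for 99.3% of features, where the median feature separated from 0.399% of the others. Features were not matched for count level in this ranking. It ranks how often ratios separate and not the size of the difference. By log2 fold change of the IL-17 mean, 28.6% of features tested lay lower than HNRNPD. ZFP36L1 and KHSRP, also high in TPM, had larger shares than 81.5% and 78.7% of features. ZC3H12A went the other way from HNRNPD, with its ratio higher with IL-17 for 1188 features and lower for 9. RC3H1 was higher relative to 1191 features and lower relative to 1, and ZFP36L2 higher relative to 971 and lower relative to 6. For ZFP36 the ratios separated for 67 features, 33 higher and 34 lower.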

How the data were processed

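Per the labels' protocols, precipitated RNA was turned into libraries with a SMART-Seq low-input kit. Estimated counts and TPM per gene were deposited by the authors. Per the submitters' processing notes, the build was GRCh38 (hg38) and the tools, with no roles given, were RSEM 1.3.1, R 4.2.0, STAR 2.7.9 and DESeq2 1.36.0. One deposited table carries FPKM in its name, but all its columns have the same sum, so its values were taken as TPM, another unit than planned. Strand use in counting is not stated. Short RNA genes overlap the spans of ZC3H12A, RC3H1, RC3H2 and KHSRP in RefSeq, and how reads there were assigned was not tested. The estimated counts of these genes were not whole in 0 libraries. The sample titles gave the groups and replicate numbers.

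Counts were rounded, filtered with filterByExpr (minimum count 10) to 24040 features, TMM-scaled and tested by edgeR 4.0.16 (quasi-likelihood, R 4.3.3). All 12 libraries shared 1 model with a common dispersion of 0.953. Benjamini-Hochberg adjustment ran over all features tested, and the script was tested on simulated data. All 7 comparisons that share libraries are given side by side and not as independent evidence. The mean over antibodies treats FLAG and IgG libraries as independent, which the labels do not state.

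The 10 genes and all lists were chosen with earlier results of these data known. All 10 are named whatever their values. Wider decay lists, cell type markers and genes of like pattern were planned but not tested, because 0 identifiers matched the RefSeq table by Ensembl identifier. Count ratios used 0.5 added counts. Alternatives were other scalings and filters, DESeq2 1.42.0, limma 3.58.1 on log2 TPM (pseudocount 1 or 0.1), a replicate block, only the groups compared, and leaving out libraries. Thinning, a robust fit, removing the 10 most abundant features, and other pseudocounts for ratios were chosen after seeing the data.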

Additional observations from a re-analysis of the deposited data

How the results depend on the processing

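No regulator was called in any of the 7 comparisons with other scalings or filters, thinning, the robust fit or limma. Regulators called numbered 2 for the IL-17 mean and 2 for IL-17 in IgG by DESeq2. Without the 4 libraries set apart they numbered 3 and 3, with 1 for IL-17 in FLAG, 1 for the enrichment in medium and 1 for its change, with 1 IgG medium library left and 0.384% to 5.99% of all features called per direction. Leaving out each library in turn gave 0 to 1 for the IL-17 mean, with no share of all features given beside it. Pairs with separate ratios numbered 8, 13 without those 4 libraries and 8 to 11 leaving out each library. Leaving out libraries can only keep or add separated pairs, so these numbers could not fall below 8 and do not test stability. The share over all pairs of features was not computed for these smaller sets. Replicate numbers did not meet the rule for pairing, which needs every correlation of deviations over 0.1 (9 of 18 were, range -0.14 to 0.468). All 6 among the libraries numbered 3 were over it (0.213 to 0.392), and 6 of 12 libraries correlated best with their own number. A replicate block called 0 regulators, with 1.69 for ZC3H12A and -0.79 for HNRNPD for the IL-17 mean.

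Signs for the IL-17 mean turned on TPM, with pseudocounts of 1 and of 0.1, for RC3H1 (-0.53 and -0.39), RC3H2 (-0.81 and -0.96), ZFP36 (-0.46 and -0.85), ZFP36L1 (-1.21 and -1.24), KHSRP (-0.56 and -0.58), ELAVL1 (-0.36 and -0.34) and UPF1 (-0.80 and -1.002). The medians of all features there were -0.34 and -0.67. In FLAG they turned for 8 genes (-1.41 to -0.27), including ZC3H12A (-0.27 and -0.49), ELAVL1 (-0.72 and -0.84) and RC3H1 (-1.14 and -1.41), and in IgG for 5 (-1.14 to -0.23). ZC3H12A in FLAG still lay above the median of all features in all 26 alternatives, by at least 0.18. KHSRP was -0.05 for the mean when thinned to 740000 counts, where ZFP36 had no value. The cause was not tested. ZC3H12A, ZFP36L2 and HNRNPD kept their sign for the IL-17 mean in all 25 alternatives, also relative to the median of all features. Scaling moved that median (TMM -0.07, RLE -0.42, upper quartile -0.31, library size -0.41).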
